A study of Mus musculus with 8 samples.

Results

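The elongase genes Elovl1 to Elovl7 encode the enzymes that start each round of fatty acid elongation, and ATAC-seq peak summits at these 7 genes were examined in brown adipose tissue (BAT) of cold exposed mice. The measurement was ATAC-seq, in which a transposase inserts sequencing adapters into accessible DNA, and the values are the peak summits that the authors deposited. A gene was given every summit inside its body and every summit up to 50 kb from a transcription start site (TSS) of one of its curated RefSeq mRNAs. This gave 22 summits of the 32173 in the list, 7 at Elovl3 and 15 at the other 6 genes.

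The list was made from 4 libraries, each of a separate mouse, with 2 of WT mice and 2 of Dot1L-BKO mice. Dot1L-BKO mice carry a floxed Dot1l allele that Ucp1-Cre deletes, so Dot1l, the H3K79 methyltransferase, is lost in Ucp1+ cells and kept in the other cells of the tissue. All mice were 12 weeks old, fed chow and kept at 4°C for 4 hr, so the list holds no warm control. Each summit has 1 score, the −log10 of the q-value that the authors' peak caller MACS2 gave its peak, and no value for a single library. The peak names set the WT libraries against the Dot1L-BKO libraries. The study's methods describe peaks found in each sample and joined into a union set, and do not state whether this list was called on pooled reads or with one genotype as the control of the other. With one genotype as the control, a summit would mark a difference between genotypes and not open chromatin as such, so a summit is described below only as a site in this list. Genotypes therefore could not be compared, the loss of Dot1l could not be checked, and scores have no replicate error and were used only to order summits within the list. The depth of the libraries is unknown, so a gene without a summit is one at which none passed the authors' cutoffs. In whole tissue, a site open in few cells and a site weakly open in many cannot be told apart.

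Elongation takes place at the endoplasmic reticulum, where an elongase joins malonyl-CoA to an acyl-CoA and so fixes both the speed of the cycle and the chain it works on. A reductase, a dehydratase and a second reductase complete the round. Elovl1, Elovl3, Elovl6 and Elovl7 act mainly on saturated and monounsaturated chains, Elovl2 and Elovl5 on polyunsaturated chains, and Elovl4 makes the very long chains of retina, skin and brain. Elovl3 is the member best known in brown fat, where its mRNA rises strongly in the cold. None of these statements comes from the present data.

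The summit windows on which the description of Elovl3, Elovl5 and Elovl6 rests are shown here, as a choice from the sites at these genes that lie away from the starts of neighboring genes. Each runs 50 bp to both sides of its summit on the plus strand of mm10, and capitals mark the short motifs described later.
Elovl3 intron 3, chr19:46134291-46134391: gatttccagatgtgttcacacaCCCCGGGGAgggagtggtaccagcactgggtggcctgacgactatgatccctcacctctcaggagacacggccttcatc
Elovl3 downstream site of highest score, chr19:46136115-46136215: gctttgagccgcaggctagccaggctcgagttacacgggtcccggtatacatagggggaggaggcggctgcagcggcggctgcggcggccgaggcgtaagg
Elovl3 second downstream site, chr19:46137191-46137291: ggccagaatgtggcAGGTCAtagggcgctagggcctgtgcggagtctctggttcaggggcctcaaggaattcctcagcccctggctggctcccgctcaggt
Elovl6 TSS, chr3:129532302-129532402: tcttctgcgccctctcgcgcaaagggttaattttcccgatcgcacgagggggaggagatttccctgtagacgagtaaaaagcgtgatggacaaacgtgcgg
Elovl6 intron 2, the site of highest score, chr3:129591807-129591907: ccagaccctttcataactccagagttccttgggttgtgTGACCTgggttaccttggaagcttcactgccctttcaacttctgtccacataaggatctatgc
Elovl5 upstream site, chr9:77910541-77910641: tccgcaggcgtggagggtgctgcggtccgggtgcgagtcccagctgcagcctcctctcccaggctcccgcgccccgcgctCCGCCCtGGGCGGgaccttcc
Elovl5 TSS, chr9:77917266-77917366: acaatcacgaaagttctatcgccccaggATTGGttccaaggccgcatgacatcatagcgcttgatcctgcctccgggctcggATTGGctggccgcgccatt
Elovl5 intron 1, beside the TSS, chr9:77917556-77917656: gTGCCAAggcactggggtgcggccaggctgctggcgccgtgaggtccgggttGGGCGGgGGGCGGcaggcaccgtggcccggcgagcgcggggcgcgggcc

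The members fell into those with a summit at their own start and those with none. Elovl1, Elovl3, Elovl5 and Elovl6 had a summit within 1 kb of a TSS, called a promoter summit here, and Elovl2, Elovl4 and Elovl7 did not. The count of 4 of 7 stood beside 45.2% of all 21000 genes with a curated mRNA. At least 1 summit by the rule was found at 6 of 7 members and at 72.6% of all genes. The median number of summits per gene was 2 for the members and 2 for all genes, so as a family the elongases held about as many as other genes. Within the family the number ran from 0 to 7. Elovl3 and Elovl5 had the most, and 19.5% of all genes had at least as many. Elovl6 had 4, Elovl1 had 2, Elovl2 and Elovl4 had 1 each and Elovl7 had 0.

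**Figure D1:**
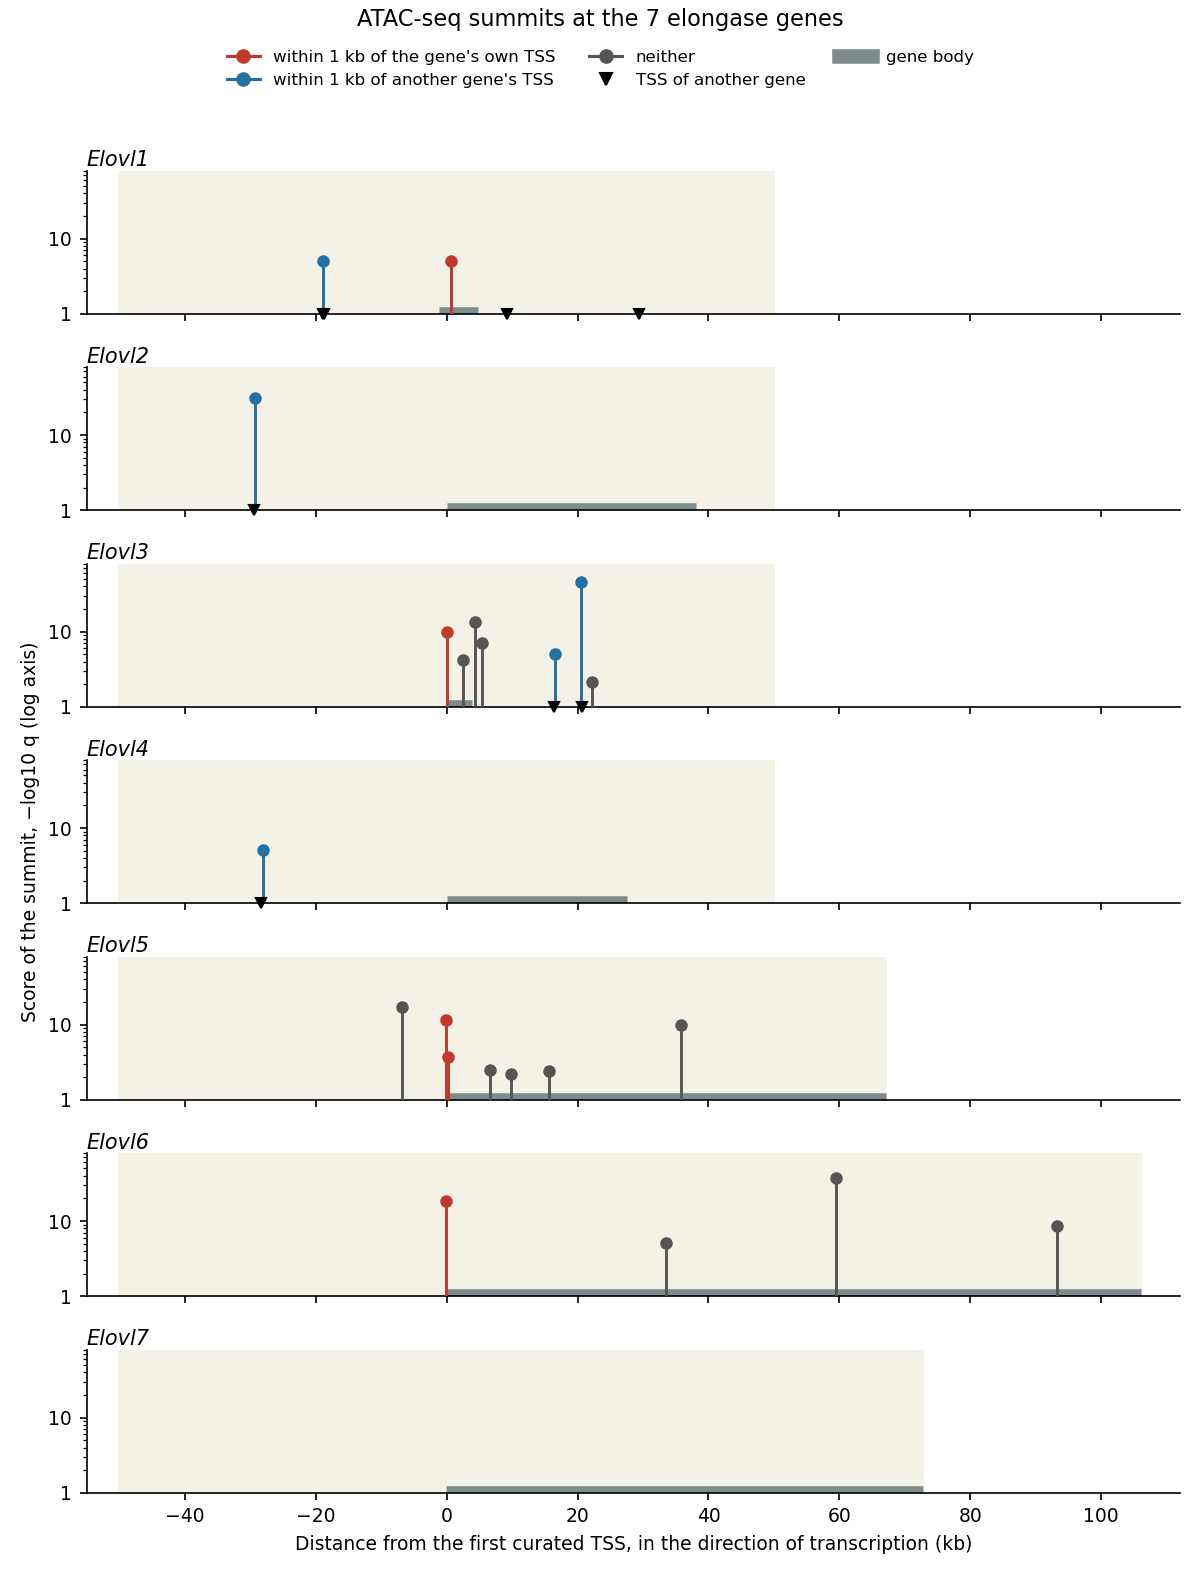
Each panel shows 1 elongase gene, with the distance from its first curated TSS in kb on the x axis and the score (−log10 q, log axis) of each summit on the y axis. The shaded span is the region searched, the grey bar the gene body and triangles the TSSs of other genes. The 4 summits nearest the Elovl3 TSS lie within 5325 bp, those of Elovl6 are spread over its gene body, and the only summits of Elovl2 and Elovl4 stand at the TSS of another gene.

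**Figure D2:**
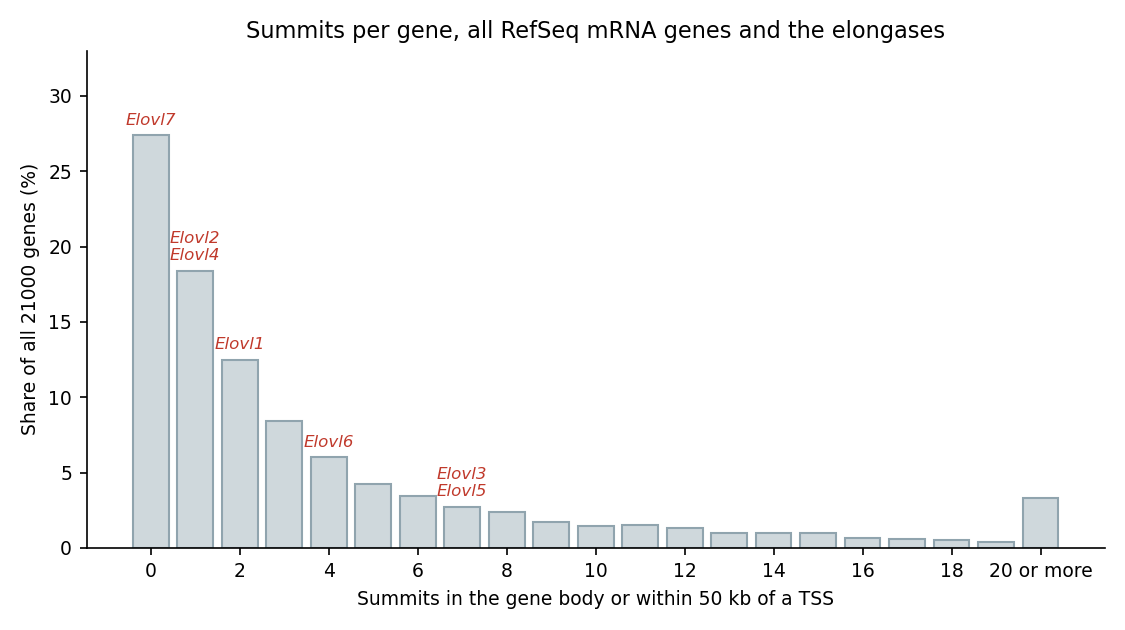
Bars give the share of all 21000 genes (y axis, %) by their number of summits under the 50-kb rule (x axis), and the elongases are named above the bar of their count. Elovl3 and Elovl5, with 7 summits each, stand to the right of most genes, and Elovl7 stands at 0 with 27.4% of genes.

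Elovl3 makes saturated and monounsaturated very long chain acyl-CoAs and is a small gene of 3.80 kb on chromosome 19 (46131897 to 46135694, plus strand). Its promoter summit, at 46131916, was 17 bp downstream of the nearer of its 2 TSSs, in the 5′ UTR of exon 1, with a score of 9.78. A second summit at 46134341 lay in intron 3 with a score of 4.16. Past the 3′ end, 2 summits lay in the neighboring gene Pitx3, which encodes a homeodomain transcription factor and is transcribed toward Elovl3. The summit at 46136165, 4266 bp from the Elovl3 TSS in coding exon 4 of Pitx3, scored 13.4, more than the summit at the Elovl3 start. That at 46137241, in intron 2 of Pitx3 and 5342 bp from the Elovl3 TSS, scored 7.05. These 4 summits were nearer to the TSS of Elovl3 than to that of any other gene.

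The other 3 summits counted at Elovl3 belonged by position to its neighbors. One at 46148378 was 53 bp from the Pitx3 TSS with a score of 5.07. One at 46152371 was 187 bp from the TSS of Gbf1, which encodes a Golgi exchange factor, and its score of 45.5 was the highest of the 22 and ranked 689 in the whole list. The last, at 46154066 in intron 1 of Gbf1, had the lowest score of the 22, at 2.15. All 7 summits lay downstream of the Elovl3 TSS. The nearest summit upstream was just outside the region, at -55933 bp, 117 bp from the TSS of Nolc1, with a score of 27.7.

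Elovl6, which lengthens palmitate and is a target of SREBP-1c in lipogenic tissues, is the longest member, at 106 kb on chromosome 3 (129532386 to 129638495, plus strand). Its promoter summit at 129532352 lay at -34 bp with a score of 18.3, the highest promoter score in the family, and also inside the lncRNA gene Gm35986 on the other strand. The other 3 summits were intronic. That at 129591857, in intron 2 and 59471 bp from the TSS, scored 37.6 and ranked 1013, higher than 98.7% of the 21798 summits of the list that are over 1 kb from a TSS. The summits at 129565914 in intron 2 and at 129625687 in intron 3 scored 5.07 and 8.65. No other curated mRNA started in this region, so all 4 summits were nearest to Elovl6 itself.

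Elovl1, which makes the saturated very long chains of sphingolipids in most tissues, lies on chromosome 4 (118426874 to 118432953, plus strand). It had 1 summit near its own start, at 118428698 605 bp past the first of its curated TSSs, in intron 1 of the mRNAs that start there and upstream of the other TSS, where the score was 5.07. Elovl7, the remaining member for saturated chains, lies on chromosome 13 (108214326 to 108287109, plus strand) and had no summit in a region of 123 kb that holds no other mRNA TSS. The nearest summit was at -55887 bp, 108 bp from the TSS of Ndufaf2, with a score of 11.2. The 50-kb limit therefore left out 1 summit close to it at Elovl7 and 1 at Elovl3, both at the TSS of another gene.

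Elovl5, the elongase of polyunsaturated chains found in most tissues, lies on chromosome 9 (77917365 to 77984519, plus strand) in a region with no other mRNA TSS. Its 2 promoter summits were at -49 bp and at 241 bp, at 77917316 and 77917606, with scores of 11.5 and 3.73. The highest score, 17.4, was upstream, at 77910591 and -6774 bp. The remaining 4 summits were in intron 1. Those at 77923922, 77927125 and 77933076 scored between 2.18 and 2.53, and that at 77953176, 35811 bp from the TSS, scored 10.01. All 7 summits were nearest to the Elovl5 TSS, while 4 of the 7 had a score under 5.

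Like Elovl7, the members that work on the longest polyunsaturated chains had no summit of their own. Elovl2, on chromosome 13 (41182382 to 41220403, minus strand), had 1 summit by the rule, at 41249736 and -29333 bp, which was 108 bp from the TSS of Smim13 and scored 30.9. Elovl4, on chromosome 9 (83778692 to 83806305, minus strand), likewise had 1, at 83834437 and -28132 bp, 252 bp from the TSS of the kinase gene Ttk, with a score of 5.07. Neither gene body held a summit. Without summits at the promoters of other genes, both counts came to 0.

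Elovl3 and Elovl5 had the same number of summits but not the same arrangement. Per 100 kb of region searched Elovl3 had 7.0, Elovl5 5.97, Elovl6 2.56, Elovl1 1.97, Elovl4 1.00 and Elovl2 0.998. Within 5 kb of a TSS Elovl3 had 3 summits, which 9.26% of all genes reached or passed, against 2 at Elovl5, 1 at Elovl6, 1 at Elovl1 and 0 at the others. Within 10 kb the order of the leading pair turned, with 4 at Elovl3 and 5 at Elovl5. When each summit was given to the gene of its nearest TSS, Elovl3 kept 4, Elovl5 kept 7 and Elovl6 kept 4. The median score was 7.05 over the summits of Elovl3 and 5.07 over those of the other genes, beside 5.001 over the whole list. These differences between 1 gene and 6 others have no replicates behind them and were not tested.

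By promoter score, the cold-induced member did not stand first. Among the 10375 summits of the list within 1 kb of a TSS, which had a median score of 8.65 and quartiles of 4.16 and 17.2, the Elovl3 promoter summit scored above 55.7%. That of Elovl6 scored above 76.8%, the stronger one of Elovl5 above 62.1% and that of Elovl1 above 29.3%. Of the 21798 summits farther from a TSS, the 4 at Elovl3 scored above 9.29%, 47.1%, 75.3% and 90.7%, the last being that in Pitx3 exon 4. The highest of Elovl5, upstream of its TSS, scored above 94.1% and the highest of Elovl6 above 98.7%, so away from promoters too the best summit of Elovl3 came after those of both genes. Scores move in steps, with 2606 distinct values over the whole list, and 5 of the 22 summits had the same score of 5.07, which 799 summits of the list share. Summits at Elovl1, Elovl3, Elovl4 and Elovl6 with this score could not be put in order.

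**Figure D3:**
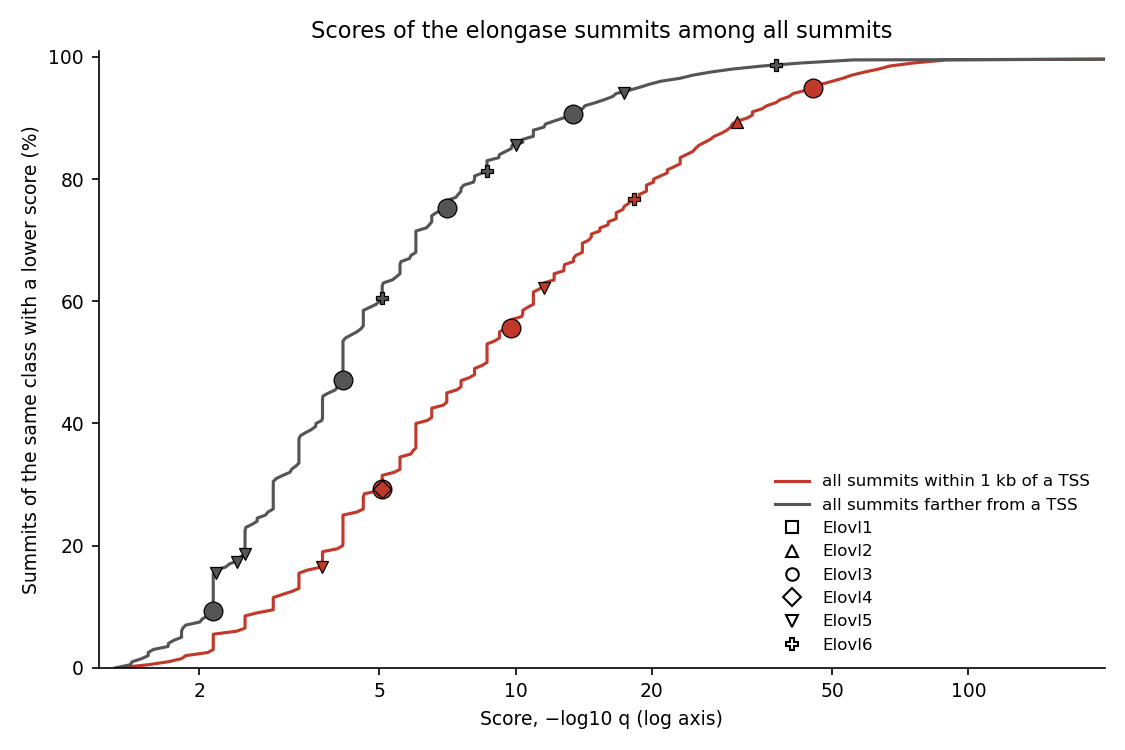
Curves give the share of summits with a lower score (y axis, %) against the score (x axis, −log10 q, log axis) for summits within 1 kb of a TSS in red and for those farther away in grey, and symbols mark the 22 elongase summits on the curve of their class. Of the near summits counted at Elovl3, that at its own TSS stands at 55.7% of the curve, that at Pitx3 at 29.3% and that at Gbf1 at 94.9%. The far ones stand between 9.29% and 90.7% of theirs. At 5.07 the near symbols of Elovl1, Elovl3 and Elovl4 cover each other.

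Sequence around the summits was compared with that of the whole list. Of the 22 windows, 21 were read, and that at the Elovl3 promoter summit was not analysed here. The median GC content was 57.4% in these and 56.4% over all summit windows. None of the 21 summits lay in a masked repeat, while 12.9% of all summits did. At least 1 of the 14 short motifs searched was found in 12 of the 21 windows. The share of all summit windows with at least 1 was not counted, so nothing is read from this number. The nuclear receptor half-site AGGTCA, which PPAR, RXR and ERR proteins can bind, was in 4 windows, at 1 Elovl3, 1 Elovl5, 1 Elovl6 and 1 Elovl1 summit, and in 8.20% of all summit windows. At Elovl3 it lay in the second downstream site, in Pitx3 intron 2, and at Elovl6 it lay 12 bp before the intron 2 summit of highest score. The SP/KLF motif GGGCGG was in 5 windows, 3 of them at Elovl5, and in 11.5% of all. The others were the windows counted at Elovl2 and Elovl4, which lie at the starts of Smim13 and Ttk. The NF-Y motif CCAAT was in 3 windows, at 1 Elovl5, 1 Elovl6 and 1 Elovl1 summit, and in 14.6% of all. The Elovl5 TSS window held it on the minus strand on both sides of the summit. The EBF motif CCCNNGGGA was in the Elovl3 intron 3 window alone of the 21, and in 5.04% of all. The Elovl3 downstream site of highest score, in Pitx3 exon 4, held none of the 14. The E-box, ETS-type and NFI motifs were in 1 window each, at Elovl1, Elovl1 and Elovl5. The ERR, AP-1, CRE, SREBP, C/EBP, DR1 and DR4 motifs were in none of the 21, and in 0.00311% (DR4) to 3.43% (AP-1) of all. These matches describe the letters of the windows, and binding of a factor was not measured.

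Within the family, the promoters with a summit inside had a lower GC content than those of the members with no promoter summit. Promoter windows of 300 bp, from 250 bp before the start, were found in the RefSeq table for 6 members as 8 windows, and Elovl3 was not among them. A summit lay inside the windows of Elovl5 and Elovl6, with a GC content of 57.7% and 55.7% and a CpG ratio, observed over expected, of 0.808 and 0.610. The windows of Elovl2 had a GC content of 84.7% and 76.7% and CpG ratios of 1.08 and 1.04, that of Elovl4 had 71.0% and 0.926 and that of Elovl7 had 74.0% and 0.731. Over all 32851 windows the order was the other way round, with a median GC content of 62.0% in the 5269 windows that held a summit and 50.7% in the 27582 that did not. The share with a summit did not rise steadily with GC content. It was 17.1% in windows of 50% to 60% GC, 39.4% in those of 60% to 70%, 24.7% in those of 70% to 80% and 2.03% in the 344 windows of 80% or more, where 1 of the Elovl2 windows stood. The part of GC content in the missing summits of Elovl2, Elovl4 and Elovl7 was not tested. Elovl1, with 70.7% and 59.0%, had its summit outside both of its windows. Among the motifs, GGGCGG was in 5 of the 8 windows, at Elovl1, Elovl2, Elovl4 and Elovl7, and in 35.7% of all promoter windows. CACGTG was in those of Elovl4 and Elovl5 and in 7.15% of all, and TGACGTCA, the cAMP response element, was in that of Elovl5 and in 1.79% of all.

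**Figure D4:**
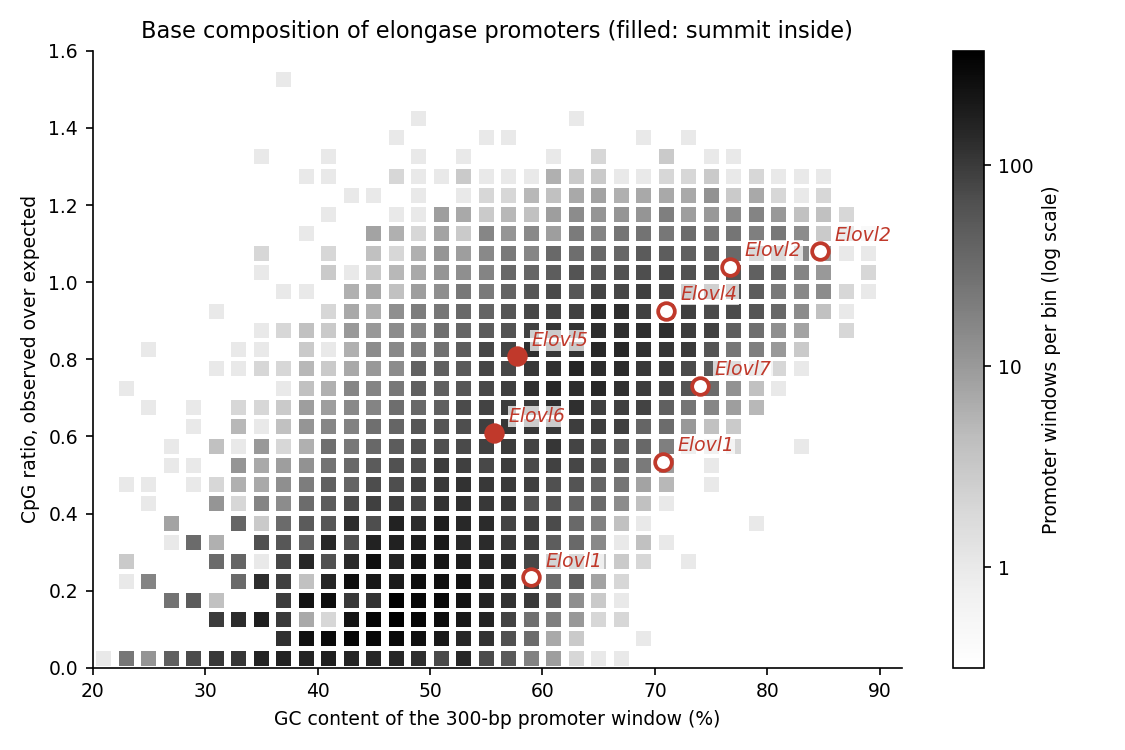
GC content of the 300-bp promoter window (x axis, %) is plotted against its CpG ratio (y axis, observed over expected), with grey squares for the number of all promoter windows per bin and red circles for the 8 windows of 6 elongase genes. Circles are filled where a summit lies inside, which holds for Elovl5 and Elovl6 at the lower GC contents, while the open circles of Elovl2, Elovl4 and Elovl7 lie at 71.0% or more.

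The genes that complete the elongation cycle were also counted at their starts. Of 7 partners 5 had a promoter summit, among them Hsd17b12, the first reductase, with a score of 54.4, Hacd2, a dehydratase, with 19.4, and Tecr, the last reductase, with 13.1. Among fatty acid desaturases 5 of 8 had one, with a score of 21.6 at Scd1 and 6.02 at Fads3. Scd1, which makes the monounsaturated chains that elongases can extend, had 20 summits by the rule, more than any elongase. Of all genes 3.33% had 20 or more. Within 5 kb of its TSS Scd1 had 6, and how many of the 20 lie at the starts of other genes was not counted. Among ceramide synthases, which use very long chain acyl-CoAs, 3 of 6 had one, and the score was 8.65 at Cers2. Among regulators of fatty acid synthesis and elongation 9 of 10 had one, with scores of 7.58 at Srebf1, 14.04 at Nr1h3 and 22.4 at Ppara, and Mlxipl had none. These counts stand beside 45.2% of all genes.

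Marker genes of the cell types that BAT can hold were counted in the same way. All 8 brown adipocyte markers and all 5 general adipocyte markers had one, against 1 of 5 endothelial, 1 of 5 macrophage and leukocyte, 1 of 5 fat progenitor and 0 of 5 skeletal muscle markers. The share of all genes with a promoter summit was 45.2%, and lists this short were not tested against it. As the list may mark differences between genotypes in Ucp1+ cells, these counts do not check the tissue label. The Elovl3 promoter score of 9.78 lay among those of the brown adipocyte markers, above 3 and below 5 of them, with Dio2 at 6.02 and Prdm16 at 8.65 below it and Cox7a1 at 15.4 and Ucp1 at 33.7 above it.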

How the data were processed

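Nuclei of BAT from 2 WT and 2 Dot1L-BKO mice were used for ATAC-seq. Per the study's methods and the submitters' processing notes, reads were aligned to mm10 with BWA and peaks were called with MACS2 2.1.1 in its ATAC mode, keeping peaks at a q-value of 0.05 and an enrichment of 2.0-fold. The authors deposited 1 position per peak with its −log10 q-value. Handling of transposase shift, duplicates and multi-mapped reads is not given in the sources used here. RNA-seq libraries were not analysed here.

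Summits were placed on RefSeq mRNAs (NM accessions) of GRCm38.p6, the build of mm10, on chromosomes 1 to 19, X and Y, which gave 21000 genes. Counts use 50 kb for the rule and 1 kb for promoters. No test was made, since no value belongs to 1 library, and counts are given beside the same over all genes. All 7 members were named, with neighbors whose TSS or gene body holds a summit. Members and lists were chosen with earlier results of these data known.

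Motifs were searched on both strands within 50 bp of summits and in RefSeq promoter windows (GRCm38.p6). They were the half-site AGGTCA, the ERR motif TCAAGGTCA that contains it, NF-Y CCAAT, SP/KLF GGGCGG, AP-1 TGANTCA, the CRE motif TGACGTCA, the E-box motif CACGTG, the SREBP motif TCACCCCAC, ETS-type CCGGAAG, C/EBP TTGCNCAA, EBF CCCNNGGGA, the NFI half-site TTGGCA, and DR1 and DR4 with exact half-sites. Proteins were not analysed here. The position of the other summit counted at Elovl1 is not reported here. Counting was tested on simulated data, where summits planted at 200 genes were all counted back. Python 3.11.15, numpy 2.4.6, pandas 2.3.3 and matplotlib 3.10.9 were used. Alternatives changed the score minimum, the distances, merging, the transcripts and how summits were given to genes.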

Additional observations from a re-analysis of the deposited data

How the results depend on the processing

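No paired analysis was possible because scores belong to peaks and not to libraries, which also left no way to leave out 1 replicate at a time. The unknown depth limits what an absent summit means.

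The 22 summits of the family stayed within 1.5 times under 7 of 10 alternatives. They came to 8 with a score of at least 10, 14 in the gene body and 1 kb around it, and 40 within 100 kb of a TSS. The 7 summits of Elovl3 came to 2 with a score of at least 10, 4 within 10 kb of a TSS, 4 by the nearest TSS, 3 in the gene body and 1 kb around it, and 19 within 100 kb. The 4 members with a promoter summit came to 2, Elovl5 and Elovl6, at the score minimum of 10, and were 3 or 4 under the other 6 alternatives. Each change follows from fewer summits or another region being counted.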

Other observations

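Between 50 and 100 kb from a TSS, 18 further summits lay around the 7 genes, and 12 of them were at Elovl3, with 4 at Elovl5, 1 at Elovl6, 1 at Elovl7 and 0 at Elovl1, Elovl2 and Elovl4.

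The Elovl5 summit at 77933076 on chromosome 9, with a score of 2.42, stood in a short tandem repeat. Its window matched itself at a shift of 49 bases with 1 mismatch in 52 bases compared, a match of 98.1%, while none of the other 20 windows read passed 50% at any shift from 10 to 50 bases. The window was chr9:77933026-77933126, and its sequence was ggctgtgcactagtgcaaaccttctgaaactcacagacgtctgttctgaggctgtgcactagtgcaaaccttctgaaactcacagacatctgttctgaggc. Whether reads were placed on one copy or shared between copies is not known here, and the part of the repeat in this summit was not tested.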
